A study of Arabidopsis thaliana with 21 samples.

Results

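The asil2-1 mutation was examined here in embryos that already carried a mutation of ASIL1: 3 libraries of the double mutant asil1-1 asil2-1 were compared with 3 libraries of the single mutant asil1-1, which makes 6 of the 21 libraries of the series. Both groups carry asil1-1, so by their labels they differ in asil2-1 alone, in the Columbia-0 (Col-0) ecotype. Other differences between the lines were not tested. RNA came from hand-dissected embryos of the late heart stage, in which cotyledons are just forming, grown at 22 °C with 16 h of light a day. The series also holds Col-0, asil2-1, asil2-2, asil1-1 asil2-2 and Ler, of which asil2-1 and Col-0 serve here as the same mutation in an otherwise wild-type background. The sources used here give neither the lesions of asil1-1 and asil2-1 nor the number of plants and embryos behind a library. P-values therefore measure the spread between libraries, estimated here over all 21 of the series, part of which may be technical.

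ASIL1 and ASIL2 are closely related trihelix transcription factors. ASIL1 is known from Arabidopsis seedlings and embryos as a repressor of seed maturation genes, and it binds GT elements in their promoters. Embryo maturation, in which storage proteins and oil accumulate, normally starts after the heart stage. Many of the genes that fell in the comparison belong to mitochondria. Plant mitochondria keep a genome of their own for some subunits of the respiratory chain, of ATP synthase and of the ribosome, while nearly all other mitochondrial proteins, including the chaperones and proteases that fold and clear them, are encoded in the nucleus and imported.

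One of the 6 libraries stood apart. In asil1-1 asil2-1 replicate 1, a single protein kinase locus, AT5G18610, took 45.7% of the counts, against 0.178% to 1.91% in the 20 other libraries. Totals were 4.14, 5.46 and 6.92 M counts in asil1-1 asil2-1 and 5.69, 8.05 and 7.74 M in asil1-1. The median correlation of its log2 levels with those of the other libraries was 0.75, against 0.96 for each of its replicates. Results are therefore given both with all libraries and without asil1-1 asil2-1 replicate 1. Levels are CPM, the reads of a gene scaled to a fixed library size.

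With all libraries, 5 genes rose and 14 fell in asil1-1 asil2-1 at an adjusted p under 0.05 in edgeR's quasi-likelihood test, which is 0.0274% and 0.0766% of the 18269 genes tested. These calls rest on a spread estimated over all 21 libraries: fitted to the 6 compared libraries alone, edgeR called no gene in either direction, with 906 at an unadjusted p under 0.05. Leaving out any 1 of the 6 gave 1 to 199 rises and 5 to 53 falls. Without asil1-1 asil2-1 replicate 1, 5 rose and 27 fell, 0.0272% and 0.147% of 18405, and 45 and 84 in a fit of the 5 compared libraries alone. Both runs called 14 genes in the same direction, 3 of them higher and 11 lower, and 37 genes were called in at least 1 run. At an unadjusted p under 0.05 the shares were 14.3% with all libraries (9.43% higher and 4.85% lower) and 6.91% without replicate 1 (3.37% higher and 3.54% lower). The median log2 fold change over all genes was 0.01 in each run. Of the 27 falls without replicate 1, 12 were genes of the mitochondrial genome, 8 lay in a copy of that genome on chromosome 2, and 7 were other nuclear genes. With all libraries these numbers were 3, 3 and 8.

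Neither mutated gene gave a change that passed the test. ASIL1 stood at 2.73, 3.11 and 5.25 CPM in the double mutant and at 1.87, 1.84 and 1.28 CPM in asil1-1, against 35.2, 37.1 and 39.8 CPM in Col-0. Both mutant groups were thus far below Col-0, and the double mutant lay above asil1-1 without overlap, with a log2 fold change of 1.24 ± 0.32 (SE; adjusted p = 0.136, edgeR, n = 3 per group) and of 1.36 ± 0.33 without replicate 1 (adjusted p = 0.131). ASIL2 stood at 42.1, 49.2 and 61.5 CPM in the double mutant and at 59.8, 57.3 and 53.7 CPM in asil1-1. The groups overlapped, and the log2 fold change was -0.15 ± 0.29 (edgeR adjusted p = 0.827) and -0.04 ± 0.27 without replicate 1 (adjusted p = 0.996). Counts of ASIL2 therefore give no check of the asil2-1 label, in this comparison or in the Col-0 background, where asil2-1 held 48.2, 39.8 and 37.6 CPM and Col-0 held 56.0, 48.2 and 49.4 CPM.

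UBC11 (AT3G08690, chr3:2641012-2642919, TAIR10.1), a ubiquitin-conjugating enzyme that passes activated ubiquitin to ubiquitin ligases, fell in both runs. It held 10.9, 27.1 and 28.2 CPM in asil1-1 asil2-1 and 56.7, 66.8 and 63.4 CPM in asil1-1. All 3 double mutant libraries lay below all 3 asil1-1 libraries, with replicate 1 the lowest. The log2 fold change was -1.44 ± 0.20 (edgeR adjusted p = 0.00194, n = 3 per group) and -1.18 ± 0.13 without replicate 1 (adjusted p = 0.000107). The gene was as low in asil2-1 alone, at 24.0, 22.4 and 23.1 CPM against 58.5, 59.1 and 57.6 CPM in Col-0, a log2 fold change of -1.33 ± 0.20 with all libraries (adjusted p = 0.0153) and of -1.33 ± 0.12 without replicate 1 (adjusted p = 1.83e-06). The difference between both effects of asil2-1 was -0.11 ± 0.28 with all libraries (adjusted p = 0.933) and 0.15 ± 0.17 without replicate 1 (adjusted p = 1). UBC11 kept its call when any single library of the comparison was left out, in both runs, but not in the fit of the 6 compared libraries alone, where no gene was called. It belongs to a family of near-identical ubiquitin-conjugating enzymes, and how reads that match several members were counted is not known here. Of the 12 tested genes in the list of UBC8-type enzymes and glucose-6-phosphate dehydrogenases, UBC11 was the only one called, in either run.

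The promoters of UBC11 and of AT3G26140, which rose in both runs, are printed because both hold the GT element GTGATT; that of RAV2, another rise, holds none. Each is the 250 bases before the gene's start in RefSeq's annotation of TAIR10.1, read 5′ to 3′ on the strand of the gene, and capitals mark GTGATT or, on the opposite strand, AATCAC. UBC11 lies on the plus strand (chr3:2640762-2641011) and AT3G26140 on the minus strand (chr3:9563323-9563572).
UBC11: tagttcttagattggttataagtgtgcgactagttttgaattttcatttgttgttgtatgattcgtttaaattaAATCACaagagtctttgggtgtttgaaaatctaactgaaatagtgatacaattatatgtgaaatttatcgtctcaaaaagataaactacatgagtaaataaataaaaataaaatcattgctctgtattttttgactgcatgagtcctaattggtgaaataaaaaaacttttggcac
AT3G26140: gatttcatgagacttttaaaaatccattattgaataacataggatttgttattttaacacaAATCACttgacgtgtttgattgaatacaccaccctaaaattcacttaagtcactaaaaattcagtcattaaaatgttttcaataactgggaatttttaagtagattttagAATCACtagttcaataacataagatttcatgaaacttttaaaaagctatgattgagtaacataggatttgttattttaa
The element had 1 match before UBC11 and at 2 places before AT3G26140. Among 18040 nuclear promoters of the same length, 15.8% held it at least once on either strand. Of the 17 nuclear genes outside the chromosome 2 copy called in at least 1 run, 4 held it, which also include AT3G44190 and AT5G18610. A match of letters is a description and shows no binding.

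**Figure D1:**
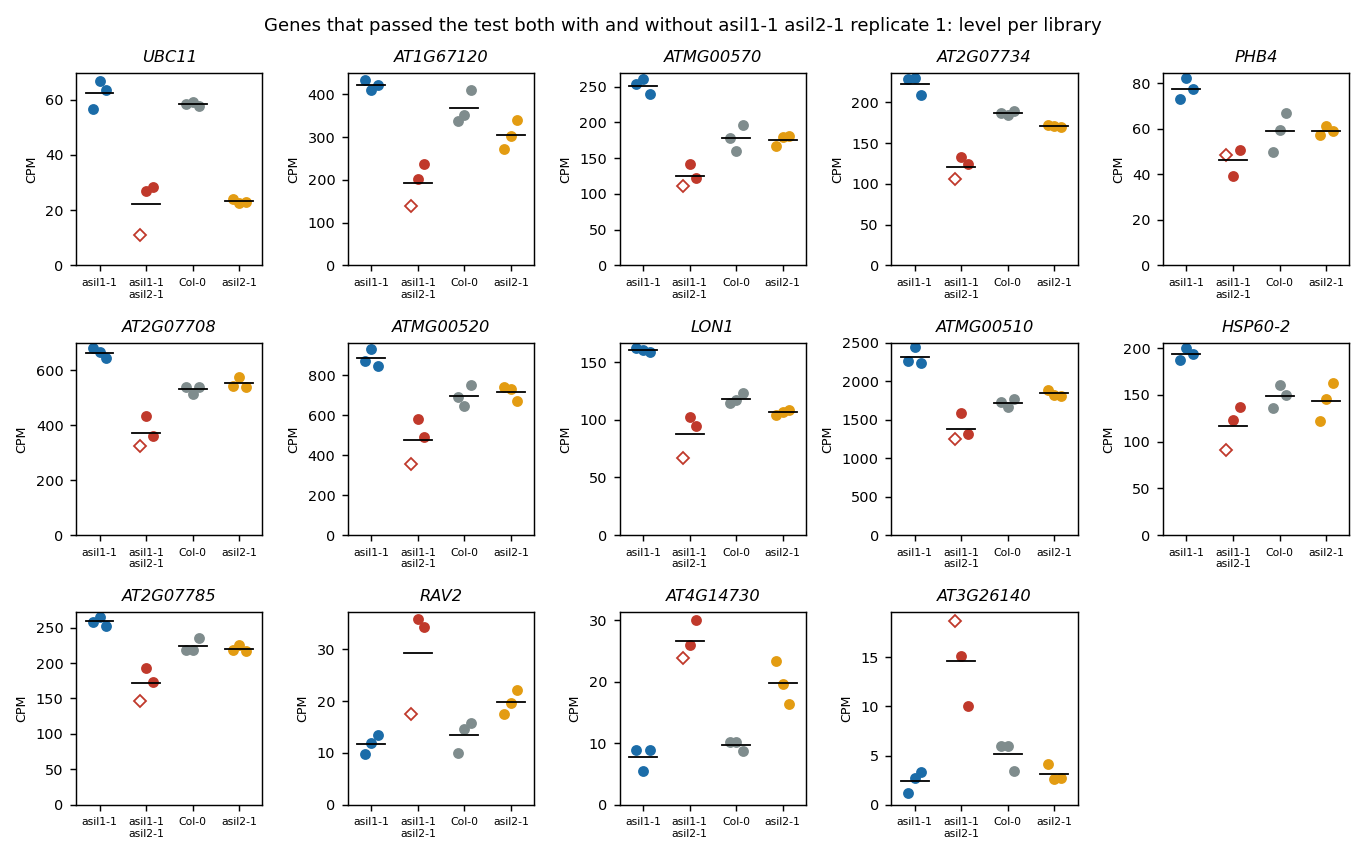
Level in CPM of each of the 14 genes called both with and without asil1-1 asil2-1 replicate 1, in the 12 libraries of 4 genotypes, ordered from the largest fall to the largest rise. Points are libraries, lines are group means, and the open diamond is asil1-1 asil2-1 replicate 1. For the genes that fell, apart from UBC11, all asil1-1 libraries lie above every Col-0 and asil2-1 library, as for LON1 at 159 to 162 CPM against at most 123 CPM.

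Most genes of the mitochondrial genome were lower in the double mutant. Without replicate 1, 90 of its 92 tested genes were lower, of 93 with counts, and the median log2 fold change was -0.58 against 0.01 over all genes. The test called 12 of the 92 lower and none higher, against 0.147% of all genes called lower, and 53 were lower at an unadjusted p under 0.05, against 3.54% of all genes. In 68 of the 92, both double mutant libraries lay below all 3 asil1-1 libraries, a pattern found in 14.2% of all genes. With all libraries, 58 of the 92 were lower, the median was -0.27 and 3 were called. In replicate 1, 38 of the 92 lay below all asil1-1 libraries and 46 above all of them. The mitochondrial share of counts was 2.94% in replicate 1, or 5.41% with AT5G18610 left out, against 4.73% and 4.58% in replicates 2 and 3 and 5.34% to 5.61% in asil1-1. Most of each share came from 1 locus, ATMG00030. It held 31947, 26426 and 26334 CPM in the double mutant and 28471, 26805 and 27415 CPM in asil1-1. Its log2 fold change was -0.07 without replicate 1 and 0.03 with all libraries (edgeR adjusted p = 0.977 and 0.935). In bulk samples, fewer cells of a type and less RNA per cell cannot be told apart.

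**Figure D2:**
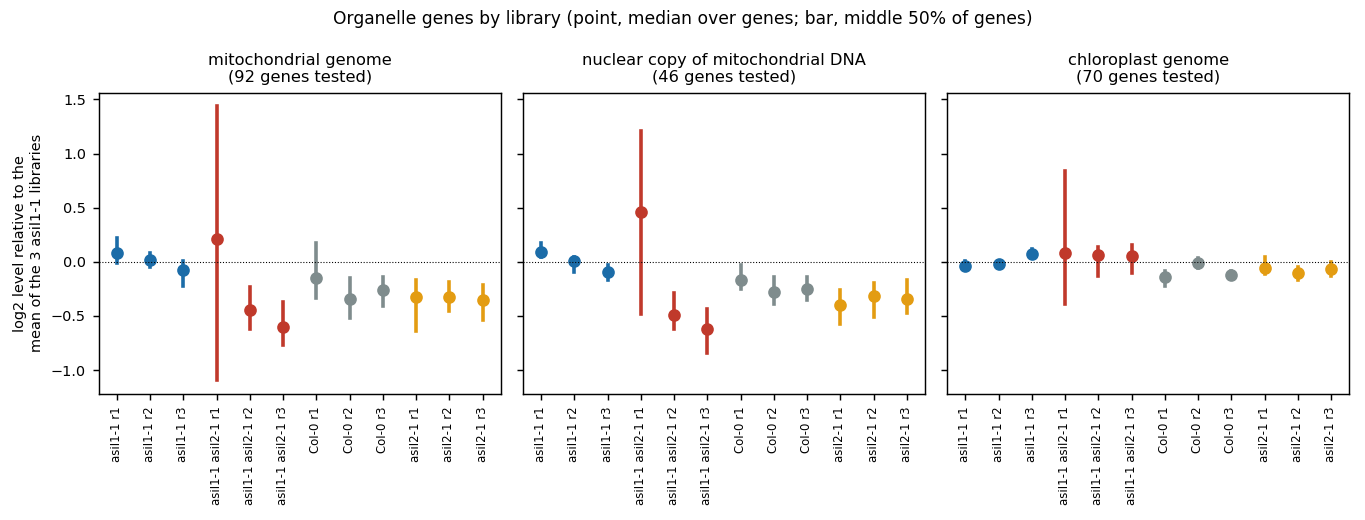
Level of organelle genes in each of 12 libraries as log2 relative to the mean of the 3 asil1-1 libraries, for 92 genes of the mitochondrial genome, 46 genes of its copy on chromosome 2 and 70 genes of the chloroplast genome. Points are medians over genes and bars span the middle 50% of genes. In asil1-1 asil2-1 replicates 2 and 3 the mitochondrial medians are -0.45 and -0.61, those of Col-0 run from -0.34 to -0.15 and those of asil2-1 from -0.35 to -0.32, and replicate 1 spreads from -1.09 to 1.44.

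Apart from double mutant replicate 1, the asil1-1 libraries had the highest mitochondrial medians of the 4 genotypes plotted. The asil1-1 mean was above the Col-0 mean in 81 of the 92, and the mean of double mutant replicates 2 and 3 was below the Col-0 mean in 75. Against Col-0, without replicate 1 in the model, asil2-1 alone had 56 of the 92 lower, with a median of -0.07 and none called, where 0.0163% of all genes were called, all lower. The mitochondrial sums, of which ATMG00030 makes up most, ran from 52993 to 54241 CPM in asil1-1. They reached 47448 CPM in double mutant replicate 1 and 47258 and 45022 CPM in replicates 2 and 3.

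Of single mitochondrial genes, ATMG00570 changed most clearly. It held 111, 142 and 123 CPM in asil1-1 asil2-1 and 254, 261 and 239 CPM in asil1-1, against 178, 159 and 197 CPM in Col-0. The double mutant libraries lay below and the asil1-1 libraries above all libraries of Col-0. Its log2 fold change was -1.003 ± 0.12 (edgeR adjusted p = 0.00105, n = 3 per group) and -0.93 ± 0.11 without replicate 1 (adjusted p = 0.000304), where the call was lost when replicate 3 was left out as well (adjusted p = 0.0553). ATMG00510 held 1256, 1589.8 and 1312 CPM in the double mutant and 2267, 2444 and 2241 CPM in asil1-1. The groups did not overlap, and it fell by 0.74 ± 0.12 on the log2 scale (edgeR adjusted p = 0.0105) and by 0.68 ± 0.10 without replicate 1 (adjusted p = 0.0027). ATMG00520 fell by 0.89 ± 0.15 (edgeR adjusted p = 0.0105) and by 0.72 ± 0.11 (adjusted p = 0.0027). The annotation used here names none of these 3 genes. ATMG00510 and ATMG00520 lost their calls with all libraries when asil1-1 replicate 1 or 2 was left out (highest adjusted p = 0.118), and without replicate 1 when replicate 3 was (adjusted p = 0.28 and 0.299).

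The other 9 mitochondrial falls were called only without replicate 1, and none of the 9 kept its call when each further library was left out in turn. They include ATMG01320, annotated as NADH dehydrogenase 2B of respiratory complex I, with 85.5, 201 and 166 CPM in the double mutant and 272, 273 and 263 CPM in asil1-1. They also include ATMG00560, annotated as an OB-fold nucleic acid-binding protein, with 50.7, 93.2 and 85.9 CPM against 133, 147 and 127 CPM. The groups did not overlap for either gene, and the log2 fold changes without replicate 1 were -0.56 ± 0.11 (edgeR adjusted p = 0.0429, and 0.1 with all libraries) and -0.60 ± 0.12 (adjusted p = 0.044, and 0.0562). ATMG00060, ATMG00300, ATMG00513, ATMG00516, ATMG00580, ATMG00660 and ATMG00830 make up the rest, with log2 fold changes from -0.67 to -0.49. The shift was not even along the genome. Without replicate 1, cytochrome c oxidase subunit 3 (ATMG00730) was at -0.09, ATP synthase subunit 1 (ATMG01190) at -0.01 and F0-ATPase subunit 9 (ATMG01080) at -0.04, while the cytochrome c biogenesis gene ATMG00180 was at -0.53. With all libraries these 4 were at -0.38, -0.38, 0.36 and -0.54, so ATMG01080 changed sign, and none of the 4 passed the test in either run.

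The 8 falls on chromosome 2 cannot be told from the mitochondrial genes. A block of 270728 bases there (chr2:3239038-3509765) matches the mitochondrial genome over 99.6% of its length at a mean identity of 99.9%, and 49 of the counted gene models lie in it. Without replicate 1, 45 of 46 tested models of the block were lower, with a median of -0.60, and with all libraries 28 of 46 were lower, with a median of -0.17 and 3 called. AT2G07734, a ribosomal protein S4 family member, held 107, 132 and 124 CPM in the double mutant and 229, 229 and 209 CPM in asil1-1. No library of one group overlapped the other, and it fell by 0.87 ± 0.12 on the log2 scale (edgeR adjusted p = 0.00194) and by 0.80 ± 0.11 without replicate 1 (adjusted p = 0.000861). AT2G07708 held 323, 434 and 361 CPM against 682, 666 and 644 CPM, without overlap. It fell by 0.83 ± 0.12 (edgeR adjusted p = 0.00303) and by 0.74 ± 0.10 (adjusted p = 0.000861). Without replicate 1, both calls were lost when replicate 3 was left out as well (adjusted p = 0.109 and 0.152).
A stretch of 60 bases inside each gene is printed to show what a read would have to tell apart. AT2G07734 is read from the minus strand (chr2:3472998-3473057) and AT2G07708 from the plus strand (chr2:3387505-3387564), and both stretches also occur without a mismatch in the mitochondrial sequence.
AT2G07734: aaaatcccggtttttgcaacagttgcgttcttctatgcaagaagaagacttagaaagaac
AT2G07708: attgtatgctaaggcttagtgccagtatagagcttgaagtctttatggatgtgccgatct

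The chloroplast genome did not shift in the same way. Of its 70 tested genes, 43 were higher and 27 lower without replicate 1, with a median of 0.06 and none called. At an unadjusted p under 0.05, 2 were higher and 4 lower. Both remaining double mutant libraries lay above all asil1-1 libraries in 20 of the 70 and below all of them in 20. Of all genes, 15.1% and 14.2% did so. With all libraries, 38 were higher, the median was 0.03 and none was called. At an unadjusted p under 0.05, 15 were then higher and 1 lower, against 9.43% and 4.85% of all genes.

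Several nuclear genes whose proteins work in mitochondria were among the falls. LON1 (AT5G26860, chr5:9450952-9457000), an ATP-dependent protease of the mitochondrial matrix, held 66.7, 102 and 94.8 CPM in the double mutant and 162, 161 and 159 CPM in asil1-1. Col-0 lay between them at 115, 117 and 123 CPM. The log2 fold change was -0.86 ± 0.13 (edgeR adjusted p = 0.0051) and -0.71 ± 0.10 without replicate 1 (adjusted p = 0.000917). It kept its call with each library left out in turn from the full set, though not with the 6 compared libraries alone, and without replicate 1 lost it when replicate 3 was left out too (adjusted p = 0.15).

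PHB4 (AT3G27280), a prohibitin that forms ring complexes in the inner membrane, held 48.8, 39.5 and 50.7 CPM in the double mutant and 73.2, 82.4 and 77.5 CPM in asil1-1. The groups did not overlap, with log2 fold changes of -0.75 ± 0.14 (edgeR adjusted p = 0.0424) and -0.78 ± 0.15 (adjusted p = 0.0272). HSP60-2 (AT2G33210), a chaperonin of the matrix with close paralogs, held 90.9, 123 and 137 CPM and, in asil1-1, 187, 200.3 and 194 CPM. It fell by 0.72 ± 0.14 (edgeR adjusted p = 0.048) and by 0.58 ± 0.12 (adjusted p = 0.0441). TOC64-V (AT5G09420), which has a role at the outer membrane of mitochondria, held 3.51, 19.9 and 18.02 CPM and, in asil1-1, 31.1, 33.1 and 35.7 CPM. It passed only without replicate 1, at -0.82 ± 0.16 (edgeR adjusted p = 0.0405, and 0.12 with all libraries). Without replicate 1, each of these 3 calls was lost whichever further library was left out, with adjusted p up to 0.592, 0.701 and 0.739. With all libraries, PHB4 and HSP60-2 lost theirs without any 1 of the 3 asil1-1 libraries.

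The wider groups of such genes, drawn up after these falls were seen, mostly did not pass. Of 17 mitochondrial chaperones and proteases, 11 were lower without replicate 1 with a median of -0.12, and 16 with all libraries with a median of -0.23. LON1 and HSP60-2 were called in both runs. At an unadjusted p under 0.05, 7 of the 17 were lower without replicate 1 and 6 with all libraries, and none was higher. Of all genes, 3.54% and 4.85% were lower at that threshold. The 7 and the 6 include LON1 and HSP60-2, seen to fall before the list was drawn up. Part of any excess was thus set by that choice. All 5 tested prohibitins were lower in both runs, with medians of -0.34 without replicate 1 and -0.46 with all libraries, and PHB4 was called. In each run, 4 of the 5 had an unadjusted p under 0.05, among them PHB4, which had also been seen to fall beforehand. PHB1 held 28.5, 47.7 and 44.6 CPM against 69.0, 70.1 and 73.9 CPM in asil1-1, at -0.63 ± 0.14 without replicate 1 (edgeR adjusted p = 0.0806) and -0.80 ± 0.17 with all libraries (adjusted p = 0.0628). Of 18 genes of mitochondrial protein import, 13 were lower without replicate 1 with a median of -0.11, and TOC64-V was called, and with all libraries 12 were lower with a median of -0.07 and none called. Of 242 pentatricopeptide repeat genes, whose proteins process organelle transcripts, 187 were lower with a median of -0.21 and none called (22 at an unadjusted p under 0.05). That direction depended on replicate 1, since with all libraries 111 of the 242 were lower and the median was 0.05. Of 21 nuclear genes for complex I subunits, 13 were higher without replicate 1, with a median of 0.06, and none was called. The 1 gene at an unadjusted p under 0.05 in that run was lower. With all libraries 15 were higher, with a median of 0.18 and none called, and 4 were higher at an unadjusted p under 0.05.

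Site II elements, known from promoters of ribosomal protein and mitochondrial protein genes, were searched as TGGGCC and its reverse complement GGCCCA. They occurred in 17.58% of the 18040 promoters and in 5 of the 17 nuclear genes, namely AT1G67120, HSP60-2, PHB4, AT3G44190 and AT5G64710. The promoters of 2 of the falls are printed with the element in capitals, both on the minus strand, AT1G67120 at chr1:25095639-25095888 and HSP60-2 at chr2:14078773-14079022.
AT1G67120: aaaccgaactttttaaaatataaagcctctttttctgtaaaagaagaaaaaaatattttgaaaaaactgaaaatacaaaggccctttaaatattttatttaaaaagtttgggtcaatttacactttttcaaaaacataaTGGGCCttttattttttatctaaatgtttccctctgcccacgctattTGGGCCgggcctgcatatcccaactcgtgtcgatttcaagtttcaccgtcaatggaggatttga
HSP60-2: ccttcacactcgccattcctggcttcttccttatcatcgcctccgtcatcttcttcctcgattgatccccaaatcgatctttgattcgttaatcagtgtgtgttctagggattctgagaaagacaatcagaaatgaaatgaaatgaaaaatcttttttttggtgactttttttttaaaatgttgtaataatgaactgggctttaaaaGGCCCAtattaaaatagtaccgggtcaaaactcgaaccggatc
No match was found in the 250 bases before LON1, and a telo-box (AAACCCTA), present in 3.80% of promoters, was found before Cpn60alpha2 alone among the 17.

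AT1G67120 (chr1:25069428-25095638), annotated as midasin-like, encodes a very large AAA ATPase that strips assembly factors from the large ribosomal subunit. It held 138, 201 and 237 CPM in the double mutant and 434, 410.4 and 421 CPM in asil1-1, against 338, 352 and 409.8 CPM in Col-0. The double mutant lay below every library of the other 3 genotypes shown. Its log2 fold change was -1.13 ± 0.19 (edgeR adjusted p = 0.0105) and -0.95 ± 0.17 without replicate 1 (adjusted p = 0.0151). The call was lost with all libraries when any asil1-1 library was left out (highest adjusted p = 0.0809) and without replicate 1 in 4 of 5 cases (highest adjusted p = 0.379). Of the 18 genes in the ribosome biogenesis list, 15 were lower without replicate 1 with a median of -0.26, and 16 with all libraries with a median of -0.37. At an unadjusted p under 0.05, 5 and 8 of the 18 were lower and none higher, against 3.54% and 4.85% of all genes lower. Summed levels of the list also varied within genotypes, from 2840 to 4199 CPM in asil2-1 and from 3511 to 4317 CPM in Col-0. They ran from 2518 to 3380 CPM in the double mutant and from 3793 to 4459 CPM in asil1-1. AT1G67120 was the 1 gene called. Others were FIB2, the fibrillarin of nucleoli, at -0.51 ± 0.24 without replicate 1 (edgeR adjusted p = 0.707, and 0.311 with all libraries) and NOP56, a core protein of box C/D particles, at -0.38 ± 0.17 (adjusted p = 0.689), or -0.55 ± 0.19 with all libraries (adjusted p = 0.225).

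Of the remaining nuclear falls, 3 passed only with all libraries. Cpn60alpha2, a plastid chaperonin, was at -1.01 ± 0.19 (edgeR adjusted p = 0.0403, and 0.0529 without replicate 1). The RNA helicase AT5G39840 was at -0.92 ± 0.18 (adjusted p = 0.044, and 0.0611) and EMB2729, annotated as an alpha amylase family protein, at -0.91 ± 0.18 (adjusted p = 0.048, and 0.072). AT5G64710, annotated as a putative endonuclease or glycosyl hydrolase, passed only without replicate 1, at -0.80 ± 0.16 (edgeR adjusted p = 0.044, and 0.173 with all libraries).

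Of the rises, 3 genes passed both with and without replicate 1. AT3G26140 (chr3:9559555-9563322), a cellulase of glycosyl hydrolase family 5, held 18.7, 15.2 and 10.1 CPM in the double mutant and 1.19, 2.70 and 3.33 CPM in asil1-1. Col-0, at 5.98, 5.96 and 3.42 CPM, and asil2-1, at 4.18, 2.63 and 2.68 CPM, also lay below every double mutant library. The log2 fold change was 2.53 ± 0.33 (edgeR adjusted p = 0.00117) and 2.32 ± 0.32 without replicate 1 (adjusted p = 0.000917), and the call held with any further library left out, though not with the 6 compared libraries alone.

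AT4G14730 (chr4:8448366-8450174), of the Bax inhibitor-1 family of membrane proteins that restrain cell death, held 23.8, 26.0 and 30.1 CPM in the double mutant and 8.84, 5.40 and 8.96 CPM in asil1-1. The groups did not overlap. The log2 fold change was 1.80 ± 0.29 (edgeR adjusted p = 0.00763) and 1.87 ± 0.30 without replicate 1 (adjusted p = 0.00463). Leaving out asil1-1 replicate 2 ended the call in both runs (adjusted p = 0.118 and 0.0796), and so did leaving out double mutant replicate 3 in the second run (adjusted p = 0.199). In the Col-0 background asil2-1 held 23.4, 19.6 and 16.4 CPM and Col-0 10.2, 10.2 and 8.77 CPM, a log2 fold change of 1.02 ± 0.29 that did not pass (adjusted p = 1 with all libraries and 0.634 without replicate 1).

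RAV2 (AT1G68840, chr1:25880155-25882222), an AP2 and B3 domain repressor also known for delaying flowering, held 17.56, 35.8 and 34.3 CPM in the double mutant and 9.68, 11.9 and 13.4 CPM in asil1-1. All double mutant libraries were above all asil1-1 libraries, with replicate 1 nearest to them. The log2 fold change was 1.35 ± 0.25 (edgeR adjusted p = 0.035) and 1.57 ± 0.21 without replicate 1 (adjusted p = 0.000861). In the second run the call held with any further library left out, and with all libraries it was lost without any of the 3 asil1-1 libraries (highest adjusted p = 0.293). In asil2-1 alone RAV2 was at 17.5, 19.6 and 22.1 CPM, above Col-0 at 9.96, 14.7 and 15.8 CPM, a log2 fold change of 0.54 ± 0.21 without replicate 1 in the model, and of 0.54 ± 0.25 with all libraries, that did not pass (adjusted p = 1).

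The other rises passed in 1 run only. With all libraries, AT2G17705, a methionine-S-oxide reductase, held 21.9, 11.9 and 12.9 CPM against 5.61, 5.03 and 4.35 CPM in asil1-1, at 1.61 ± 0.31 (edgeR adjusted p = 0.0424, and 0.0587 without replicate 1). AT5G18610 rests on replicate 1, with 737204, 6121 and 6177 CPM against 2311, 1761 and 6080.3 CPM, and was at 6.21 ± 1.23 (adjusted p = 0.048) and at 0.86 ± 0.40 without it (adjusted p = 0.707). Without replicate 1, AGT3, an alanine:glyoxylate aminotransferase, rose by 0.99 ± 0.20 (edgeR adjusted p = 0.0405, and 0.0712 with all libraries). AT3G44190, an FAD/NAD(P)-binding oxidoreductase, rose by 0.80 ± 0.16 (adjusted p = 0.0405, and 0.0583). Just outside the threshold were GAMMA-TIP, an aquaporin of the vacuole membrane, at 2.19 ± 0.44 with all libraries (adjusted p = 0.0524, and 0.0781 without replicate 1), and the pectin lyase-like gene AT3G48950 at 1.68 ± 0.35 without replicate 1 (adjusted p = 0.0508, and 0.126 with all libraries).

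The effect of asil2-1 in asil1-1 was then set against its effect in Col-0, as a test of the difference across all genes. The 2 comparisons share no library. With all libraries, 2 genes (0.0109%) differed, both with a more positive effect in asil1-1, and without replicate 1, 6 did (0.0326%), with 0.0163% in each direction. AT3G26140 differed by 3.21 ± 0.48 on the log2 scale (edgeR adjusted p = 0.0186, and 0.0148 without replicate 1). DREB2A (AT5G05410), a transcription factor of drought and heat responses, held 85.8, 122 and 139 CPM in the double mutant and 66.4, 66.3 and 75.3 CPM in asil1-1. In asil2-1 it held 52.5, 40.6 and 55.8 CPM against 89.2, 106 and 177 CPM in Col-0, so neither pair of groups overlapped and the pairs were ordered in opposite ways. The double mutant against asil1-1 did not pass (adjusted p = 0.213 with all libraries and 0.154 without replicate 1), while asil2-1 against Col-0, at -1.32, passed only without replicate 1 in the model (adjusted p = 0.102 and 0.0241). The difference was 2.07 ± 0.34 (edgeR adjusted p = 0.0341, and 0.00792 without replicate 1).

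Without replicate 1, G6PD3, a plastid enzyme of the pentose phosphate pathway, also differed, by 1.83 ± 0.32 (edgeR adjusted p = 0.0306, and 0.433 with all libraries). It held 7.80, 21.2 and 24.1 CPM in the double mutant and 25.3, 30.4 and 20.6 CPM in asil1-1, which overlap, and 5.73, 8.28 and 5.53 CPM in asil2-1 against 29.2, 23.0 and 25.3 CPM in Col-0, which do not. Replicate 1 was thus near the asil2-1 level and replicates 2 and 3 near that of asil1-1. The remaining 3 had a more negative effect in asil1-1: ATMG00570 (-0.91 ± 0.15), ATMG00510 (-0.78 ± 0.14) and AT2G07708 (-0.80 ± 0.13), with edgeR adjusted p of 0.0208, 0.033 and 0.0225. With all libraries their adjusted p were 0.0718, 0.187 and 0.128. For the other genes called in either run the difference did not pass.

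**Figure D3:**
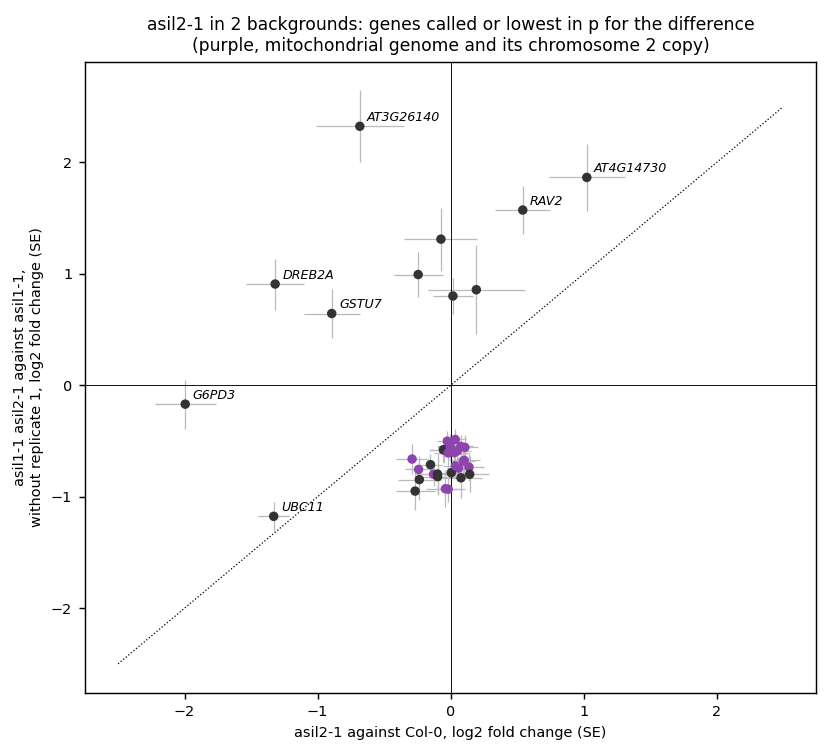
Log2 fold change of asil2-1 against Col-0 (horizontal) and of asil1-1 asil2-1 against asil1-1 without replicate 1 (vertical) for the genes called in either run and those with the lowest p for the difference, with bars of 1 SE. The dotted line marks equal effects. UBC11 lies near that line at -1.33 and -1.18, the mitochondrial genes and their chromosome 2 copies lie near 0 horizontally and between -0.93 and -0.49 vertically, and AT3G26140 and DREB2A have opposite signs.

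No gene in the lists tied to the known roles of ASIL proteins was called in either run. Of 9 seed storage protein genes, 3 had enough counts to be tested, all were lower without replicate 1 with a median of -0.74, and none was called or had an unadjusted p under 0.05. With all libraries 2 of the 3 were lower, with a median of -0.14. CRA1, a cruciferin, held 13.7, 10.8 and 7.81 CPM against 9.85, 15.0 and 9.86 CPM, which overlap. Of 14 tested maturation activators 7 were lower without replicate 1, with a median of 0.02, and 9 with all libraries, with a median of -0.09. ABI3, a B3 master regulator of maturation, was at -0.11 ± 0.15 without replicate 1 and -0.31 ± 0.18 with all libraries, and WRI1, the activator of seed oil synthesis, at -0.14 ± 0.15 and -0.21 ± 0.15 (edgeR adjusted p at least 0.431 for both genes and runs). Of 20 maturation repressors 12 were lower without replicate 1 with a median of -0.03, and 17 with all libraries with a median of -0.14. Of 15 oil body and storage lipid genes 8 were higher in both runs, with medians of 0.04 and 0.13. Of 19 fatty acid synthesis genes 12 were lower without replicate 1 with a median of -0.03, and 15 with all libraries with a median of -0.23. Of 15 late embryogenesis abundant genes, which protect drying seeds, 6 were tested and 4 were higher, with a median of 0.15, and 0.72 with all libraries. Of 5 tested ASIL and trihelix genes 4 were lower without replicate 1, with a median of -0.07, and 2 with all libraries, with a median of 0.90. At an unadjusted p under 0.05 without replicate 1, 1 activator was lower, and 1 oil gene was higher and 2 lower. No repressor or fatty acid gene passed that threshold, which 6.91% of all genes did. With all libraries 1 activator was lower, 3 repressors were lower and 1 higher, and 2 oil genes were higher. No fatty acid gene passed it then, against 14.3% of all genes. In the trihelix list ASIL1 was higher at that threshold in both runs, and 1 late embryogenesis abundant gene was with all libraries.

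RAV2 was the 1 gene called in the lists of response genes. For comparison, 50.9% of all genes were higher without replicate 1 and 51.7% with all libraries, and 3.37% and 9.43% were higher at an unadjusted p under 0.05. Of 28 wound, touch and cold response genes 26 were higher without replicate 1, with a median of 0.26 and 8 at an unadjusted p under 0.05, and 23 with all libraries, with a median of 0.17 and 9 at an unadjusted p under 0.05. RAV1, a paralog of RAV2, held 34.7, 22.5 and 23.8 CPM against 11.2, 8.72 and 13.6 CPM, and TEM1, another, held 16.0, 9.32 and 14.6 CPM against 5.44, 6.75 and 6.02 CPM. The groups overlapped for neither gene, at 1.05 ± 0.34 and 0.98 ± 0.31 without replicate 1 (edgeR adjusted p = 0.423 and 0.421) and at 1.25 ± 0.33 and 1.11 ± 0.30 with all libraries (adjusted p = 0.148 and 0.153). Of 15 heat shock genes 14 were higher, with a median of 0.89, and with all libraries all 15 were, with a median of 0.69; none was called. At an unadjusted p under 0.05, 5 were higher with all libraries, and 4 were higher and 1 lower without replicate 1. HSP101, a disaggregase of heat-damaged proteins, held 158, 229 and 211 CPM against 128, 122 and 72.0 CPM, yet it also ranged from 71.9 to 269 CPM within Col-0 and from 40.6 to 196 CPM within asil2-1. Of 23 jasmonate genes 16 were higher without replicate 1 with a median of 0.13 (4 at an unadjusted p under 0.05), and 19 with all libraries with a median of 0.14 (3 at an unadjusted p under 0.05), and none was called. In the Col-0 background asil2-1 had lower medians for the same 3 lists, at -0.26, -0.53 and -0.42. The difference was not tested for lists.

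Developmental lists had no call in either run. Of 50 embryo patterning and meristem genes 37 were lower without replicate 1 with a median of -0.19, and 33 with all libraries with a median of -0.23. KNAT6, a homeobox gene of the shoot meristem, held 8.19, 9.32 and 8.52 CPM against 18.9, 18.04 and 12.4 CPM without overlap, at -0.88 ± 0.24 without replicate 1 (edgeR adjusted p = 0.237) and -0.91 ± 0.23 with all libraries (adjusted p = 0.136). CUC3, which sets the boundary between cotyledons, held 3.12, 0.914 and 0.993 CPM against 3.57, 3.81 and 3.71 CPM. These levels rest on only 8, 5 and 7 counts in the double mutant and 21, 31 and 29 in asil1-1. The log2 fold change of CUC3 was -1.93 ± 0.65 without replicate 1 (edgeR adjusted p = 0.48) and -1.28 ± 0.66 with all libraries (adjusted p = 0.382). Of 38 cell cycle genes 22 were lower with a median of -0.05, and with all libraries 33 were with a median of -0.18. The medians of the light harvesting and carbon fixation lists changed sign, from 0.04 each without replicate 1 to -0.01 and -0.13 with all libraries. Those of the auxin list were 0.10 and 0.15 and those of the iron list 0.11 in both runs. The chlorophyll synthesis list had medians of -0.07 without replicate 1 and -0.17 with all libraries, and the list of SPL factors with microRNA machinery -0.11 and -0.29.

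**Figure D4:**
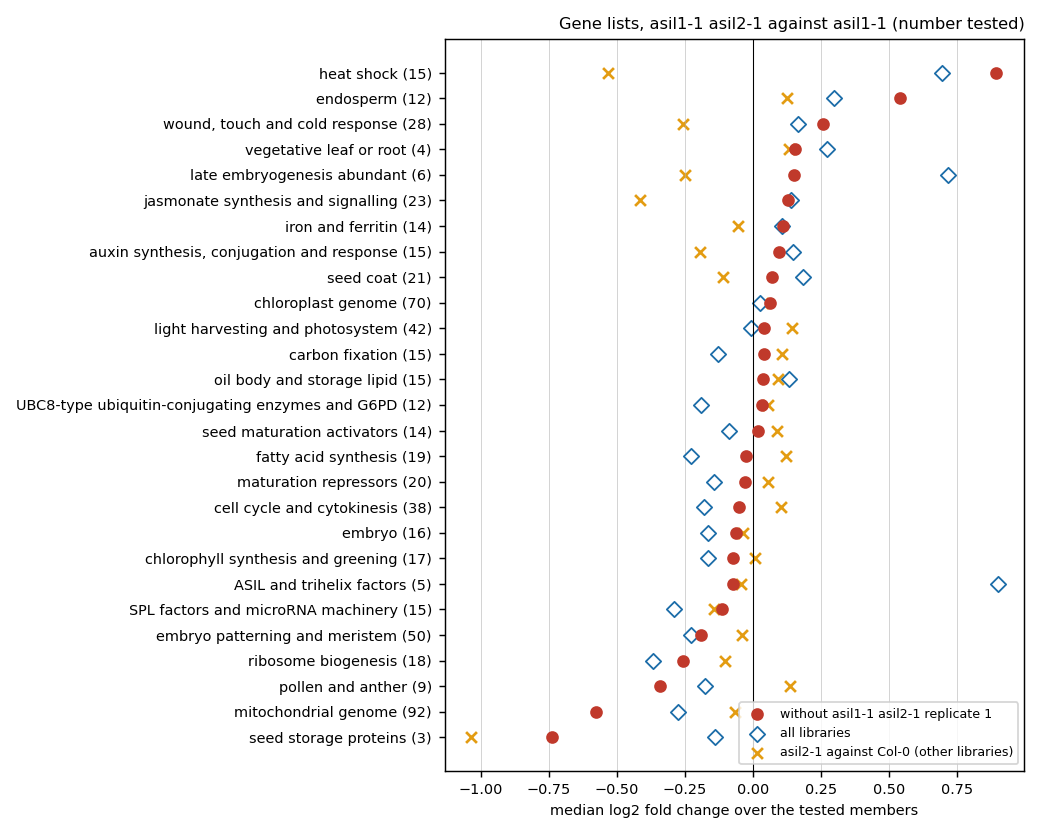
Median log2 fold change of each gene list in asil1-1 asil2-1 against asil1-1, without replicate 1 (filled circles) and with all libraries (open diamonds), and in asil2-1 against Col-0 (crosses), with the number of tested members. The mitochondrial genome is at -0.58 and -0.27, heat shock at 0.89 and 0.69, and most other lists lie between -0.26 and 0.26 without replicate 1.

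Markers of neighbouring tissues were present in both groups. Their summed levels ran from 636 to 1428 CPM in the double mutant and 906 to 1306 CPM in asil1-1 for 21 seed coat genes, and from 604 to 835 CPM and 657 to 741 CPM for 21 endosperm genes. Embryo markers (16 genes) ran from 676 to 1099 CPM and from 1023 to 1177 CPM. Of 12 tested endosperm markers 10 were higher without replicate 1, with a median of 0.54, and 9 with all libraries, with a median of 0.30. Of 21 seed coat markers 14 and 13 were, with medians of 0.07 and 0.18. Of 16 embryo markers 9 and 11 were lower, with medians of -0.06 and -0.16. No marker was called in either run. At an unadjusted p under 0.05 without replicate 1, 1 endosperm, 2 seed coat and 1 pollen and anther marker were higher, and no embryo marker passed. With all libraries 2 endosperm, 3 seed coat and 1 pollen and anther marker were higher and 1 embryo marker was lower. Both remaining double mutant libraries lay above all asil1-1 libraries in 7 of the 12 endosperm markers and below in none. For seed coat markers this was so in 5 and 2 of 21, and for all genes in 15.1% and 14.2%. MPC was at 0 throughout the double mutant and AGL96 throughout asil1-1. Pollen and anther markers summed to between 40.0 and 122 CPM in the double mutant and between 48.2 and 72.7 CPM in asil1-1. GRP17, a pollen coat protein, alone held 47.99 CPM in double mutant replicate 1. Markers of leaf and root summed to between 257 and 302 CPM and between 200.2 and 253 CPM. Of 9 tested pollen and anther markers 8 were lower without replicate 1, with a median of -0.34, and 6 of 8 with all libraries, with a median of -0.18. Of 4 tested leaf and root markers 3 were higher in both runs, with medians of 0.15 and 0.27. The part of these tissues in the results above was not tested.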

How the data were processed

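The values are read counts per gene model, deposited by the authors in a table for each library. Per the submitters' processing notes, Bowtie 0.12.7, edgeR 3.0.8 and the build TAIR10 were used. How reads were counted, with or without strand and with several matches, is unknown here, so overlapping, antisense and near-identical genes can share reads. Per the labels' protocols, the input was 70 to 90 ng of RNA per library.

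Joining the 21 tables gave 26496 models, and models absent from a table were set to 0. Locus tags of RefSeq's TAIR10.1 annotation, which gives coordinates and names, covered 26100 models and left out 396. No pair of replicates was identical.

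A single model over 21 libraries and 7 groups was fitted in edgeR 4.0.16 (filterByExpr with a minimum count of 10 and a minimum total of 15, TMM scaling, quasi-likelihood test), and a Benjamini-Hochberg adjusted p under 0.05 was a call. It was fitted again to 20 libraries, without asil1-1 asil2-1 replicate 1. The standard error is the size of the log2 fold change over the root of its F value. CPM uses TMM-scaled sizes of the 21 libraries, and log2 levels add a prior count of 2. Depths limit the precision of low genes. In simulated data, 54% of 2-fold and 96% of 4-fold changes were recovered with all libraries and 40% and 94% without replicate 1, and 6 and 9 unchanged genes were also called. Only genes of at least 4 CPM were changed. Replicate 1 was simulated with the same mean profile as every other library. The spread of each gene was taken from all 21 real libraries, replicate 1 included, for both runs. Neither pair of figures can therefore show what the real replicate 1 adds or costs. BLAST+ 2.17.0 found the chromosome 2 copy (blocks of at least 1000 bases and 95% identity).

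The comparison, the members of the lists and the rule for naming genes were chosen with earlier results of these data known, and the lists of nuclear mitochondrial genes after the falls were seen. Named genes are ASIL1, ASIL2 and AT5G18610; for each run, up to 12 rises and 12 falls with the largest called changes, at a mean log2 CPM of 2 or more and without overlap of the groups, filled up to 6 by lowest p; up to 4 members per list; the 5 lowest p of the difference test; the 6 loci with the largest shares in replicate 1; and G6PD3 and UBC11. Further genes were named after their values were seen. The alternatives used RLE scaling, all genes without a filter, DESeq2 1.42.0, limma-voom (limma 3.58.1), a replicate block, fewer libraries, AT5G18610 removed and each library left out in turn.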

Additional observations from a re-analysis of the deposited data

Results flagged for a closer look

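The effect of asil2-1 differed between the asil1-1 and the Col-0 background in edgeR's test of the difference itself for 6 genes. AT3G26140 differed by 3.21 on the log2 scale with all libraries and by 3.01 without asil1-1 asil2-1 replicate 1. DREB2A differed by 2.07 and 2.23. G6PD3 differed by 1.83, ATMG00570 by -0.91, AT2G07708 by -0.80 and ATMG00510 by -0.78, each called only without replicate 1. A positive value means a higher effect in asil1-1. AT2G07708 lies in the chromosome 2 copy of mitochondrial DNA, so its reads cannot be told from mitochondrial ones. No explanation of these differences was tested.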

How the results depend on the processing

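With all libraries (5 rises, 14 falls), the counts of rises and falls were 9 and 19 with RLE scaling, 9 and 12 without a filter, 148 and 89 with DESeq2, 94 and 129 with limma-voom, 4 and 14 with AT5G18610 removed, 12 and 61 without both libraries that stand apart, and 45 and 84 with 5 compared libraries. With only the 6 compared libraries edgeR called 0 and 0, with 906 genes at an unadjusted p under 0.05. Leaving out each library in turn gave 1 to 199 rises and 5 to 53 falls, of which 199 and 53 without asil1-1 asil2-1 replicate 2 and 176 and 53 without replicate 3. Without replicate 1 (5 and 27), the counts were 6 and 30 with RLE, 10 and 42 without a filter, 18 and 70 with DESeq2, and 45 and 84 with only the compared libraries. In alternatives chosen after seeing the data they were 81 and 131 with limma-voom and 12 and 61 with asil1-1 asil2-2 replicate 2 also left out. Leaving out each further library gave 2 to 6 rises and 1 to 13 falls; the lone double mutant library is then assumed to vary like the other groups. The difference test (2 and 0; 1249 at an unadjusted p under 0.05) gave 3 and 3 without replicate 1 and 15 and 12 with DESeq2. The causes were not tested. All 19 and all 32 called genes kept their direction with each library left out, while 6 and 3 kept their call each time.

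With the replicate number as a replicate block, the counts were 5 and 18 with all libraries and 12 and 50 without replicate 1. Over all genes, deviations of same-numbered libraries from their group means correlated at 0.03, 0.01 and 0.02, with double mutant replicate 1 in those means. Summed levels of the ribosome biogenesis list rose with replicate number in asil1-1 asil2-1, asil1-1, asil2-1 and Col-0. In asil1-1 they were 3793, 4333 and 4459 CPM. Those of the chloroplast genome also rose with the number in asil1-1, at 110424, 112893 and 118462 CPM, but not in asil1-1 asil2-1, asil2-1 or Col-0. Whether the numbers mark pairs or shared batches was not tested. Signs reversed for ASIL2, which ranged from -0.22 to 0.11 when a further library was left out without replicate 1, and for the UBC11 difference, at 0.15 without replicate 1; neither value passed the test.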

Other observations

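A second locus moved with AT5G18610. AT2G30230, annotated as a 6,7-dimethyl-8-ribityllumazine synthase, held 11100.4, 152 and 147 CPM in asil1-1 asil2-1 and 67.3, 51.8 and 211 CPM in asil1-1. AT5G18610 was lowest in asil1-1 replicates 1 and 2, at 2311 and 1761 CPM, and stood at 6080.3 CPM in replicate 3, the same order of libraries. In asil2-1 and Col-0 the ranges were 5324 to 7608 CPM for AT5G18610 and 145 to 213 CPM for AT2G30230.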
